A study of Homo sapiens with 8 samples.

Results

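Transcription factor binding was examined around 9 human genes of the epidermal growth factor receptor (EGFR) pathway and of growth control, in the deposited ChIP-seq peak lists of 2 epithelial cancer cell lines. The genes are the ligand genes EREG, AREG, TGFA and HBEGF, the receptor genes EGFR, EPHA2 and MET, and the growth genes CCND1 and MYC. The set was chosen with earlier results of these data known, and a peak was assigned to a gene when any part of it lay within 50 kb of the gene's start on hg19. Starts were given to the nearest kb, and EREG was given as a stretch from 75.231 to 75.254 Mb. Of 24078 peaks in all lists, 33 lay in these windows, and 7 of the 9 genes had at least 1.

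The series maps ETS1, ELF1, ELK4, GABPA and JUND in DU145 prostate cancer cells and ETS1 in PANC1 pancreatic cancer cells, with 1 sample per factor and line and no replicate samples. Cells were grown in serum-containing DMEM, with puromycin where they had been selected, and the labels name no treatment. The growth text speaks of DU145 on every sample, PANC1 included. All antibodies came from Santa Cruz, and ETS1 was precipitated in the 2 lines with different lots of the same antibody. An input exists for each line and was not analysed here. The DU145 ETS1 sample has 2 lists, called here the first list and the R2 list, which were treated as 1 sample. The labels do not say whether the R2 list comes from a replicate immunoprecipitation. The lists held 9984 (first), 9306 (R2), 256 (ELF1), 337 (ELK4), 2478 (GABPA), 1308 (JUND) and 409 (PANC1 ETS1) peaks. They hold no score or read count, so depth is unknown, the level of binding cannot be compared, and no test over samples was possible. Nor do they say what the order of their lines reflects, so line positions are given as positions only and not as strength.

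EGFR is a receptor tyrosine kinase of epithelial cells. Its ligands are made as membrane-anchored precursors and shed from the surface, and the bound receptor signals through RAS, RAF and MEK to the kinase ERK. ERK phosphorylates ETS1, which raises its ability to activate transcription, and ETS sites beside AP-1 sites are a known arrangement at RAS-responsive genes. Several EGFR ligands are themselves induced by RAS/ERK signalling, which forms an autocrine loop. ETS1, ELF1, ELK4 and GABPA share a DNA-binding domain that reads a GGAA core, while JUND belongs to the AP-1 family.

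RefSeq promoters, from 250 bases before to 50 bases after the annotated start on GRCh38.p14, were at hand for 7 of the 9 genes. CCND1 and MYC are named only. These 7 are shown, for genes with 2 annotated starts the outermost, because a first-list ETS1 interval covered the hg19 start of the first 5 genes, whereas no list had a peak near the last 2. They are printed 5′ to 3′ on the gene's strand, and capitals mark GGAA or its reverse complement TTCC, and TGACGTCA, the cyclic AMP response element read by CREB and some AP-1 dimers. Their GRCh38.p14 coordinates are not comparable with the hg19 positions of the peaks, so where in a peak they fall is not shown.
EGFR (chr7:55018767-55019066, + strand): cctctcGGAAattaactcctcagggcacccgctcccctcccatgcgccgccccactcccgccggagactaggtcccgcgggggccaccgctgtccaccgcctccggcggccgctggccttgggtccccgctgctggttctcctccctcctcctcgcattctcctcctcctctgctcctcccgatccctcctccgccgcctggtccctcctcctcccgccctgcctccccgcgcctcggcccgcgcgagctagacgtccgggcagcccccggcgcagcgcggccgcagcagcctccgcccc
EREG (chr4:74364895-74365194, + strand): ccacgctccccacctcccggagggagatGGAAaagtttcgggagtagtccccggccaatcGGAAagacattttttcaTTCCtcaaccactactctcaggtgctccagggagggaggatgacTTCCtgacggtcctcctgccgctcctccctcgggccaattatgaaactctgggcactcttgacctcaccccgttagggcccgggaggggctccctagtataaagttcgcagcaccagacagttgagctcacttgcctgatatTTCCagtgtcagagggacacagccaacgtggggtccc
EPHA2 (chr1:16156020-16156319, - strand): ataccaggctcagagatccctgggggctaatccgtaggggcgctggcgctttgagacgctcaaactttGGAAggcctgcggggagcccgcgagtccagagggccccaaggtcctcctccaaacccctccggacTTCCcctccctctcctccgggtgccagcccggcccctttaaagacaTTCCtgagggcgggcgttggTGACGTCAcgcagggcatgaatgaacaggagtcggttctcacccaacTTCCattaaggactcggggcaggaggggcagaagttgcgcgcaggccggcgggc
MET (chr7:116671946-116672245, + strand): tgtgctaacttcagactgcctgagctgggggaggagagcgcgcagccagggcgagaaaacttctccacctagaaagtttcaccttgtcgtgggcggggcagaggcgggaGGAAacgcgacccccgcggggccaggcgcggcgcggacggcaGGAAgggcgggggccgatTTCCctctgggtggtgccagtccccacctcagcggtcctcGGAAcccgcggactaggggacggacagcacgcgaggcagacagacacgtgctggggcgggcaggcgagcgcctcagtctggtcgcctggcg
TGFA (chr2:70553777-70554076, - strand): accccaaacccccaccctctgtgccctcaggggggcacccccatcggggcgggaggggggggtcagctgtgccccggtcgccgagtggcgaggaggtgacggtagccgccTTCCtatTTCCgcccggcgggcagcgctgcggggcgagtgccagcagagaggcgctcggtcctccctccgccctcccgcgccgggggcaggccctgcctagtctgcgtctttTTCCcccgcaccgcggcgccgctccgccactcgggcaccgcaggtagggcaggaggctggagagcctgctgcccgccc
AREG (chr4:74444886-74445185, + strand): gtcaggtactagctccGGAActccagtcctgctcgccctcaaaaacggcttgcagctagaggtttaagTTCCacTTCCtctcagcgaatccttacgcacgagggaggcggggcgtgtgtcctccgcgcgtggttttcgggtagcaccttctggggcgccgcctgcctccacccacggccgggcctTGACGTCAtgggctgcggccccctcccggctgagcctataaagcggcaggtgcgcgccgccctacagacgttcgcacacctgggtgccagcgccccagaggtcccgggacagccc
HBEGF (chr5:140346554-140346853, - strand): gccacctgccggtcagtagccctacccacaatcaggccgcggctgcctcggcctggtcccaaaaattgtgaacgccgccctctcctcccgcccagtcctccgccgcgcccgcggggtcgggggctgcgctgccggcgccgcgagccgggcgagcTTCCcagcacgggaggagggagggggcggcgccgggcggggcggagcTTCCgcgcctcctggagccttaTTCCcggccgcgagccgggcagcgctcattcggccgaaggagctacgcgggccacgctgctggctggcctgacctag

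The ETS core was present in every one of these promoters, with and without an ETS1 peak. GGAA, counted on both strands, occurred 5 times at EREG, 4 times each at EPHA2 and MET, and 3 times each at AREG and HBEGF in the promoters printed. EGFR and TGFA have 2 annotated starts each, with 1 and 5 matches at EGFR and 3 and 7 at TGFA, the printed one first. So short a motif is nearly everywhere: 95.5% of all 35116 RefSeq promoters hold it, with a median of 3 matches. The longer form GGAAG, which always contains GGAA, was found in each of the 7 printed promoters except that of EGFR, and in 71.9% of all promoters. The consensus CCGGAAGT, which contains both, was in none of the members' promoters and in 4.14% of all. TGACGTCA was in the promoters of AREG and EPHA2, 1 match each, and in 1.85% of all. The AP-1 motif TGANTCA was in no printed promoter and in 7.71% of all, although the second annotated EGFR start has 2 matches.

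ETS1 intervals lay over the starts of most of the genes in DU145. The first list had a peak covering the given start of 7 of the 9 genes, namely EREG, TGFA, EGFR, EPHA2, MET, CCND1 and MYC. R2 peaks covered 4 of these starts (EREG, EGFR, MET and CCND1), and counting peaks within 0.5 kb of the start added MYC and made 5. Because starts were given to the nearest kb, offsets of up to about 0.5 kb may be rounding. Whether a narrow peak, or one with an edge near the given start, covers the exact start is therefore uncertain. The difference between 7 and 4 is not read further. In the wider window, both ETS1 lists met the same number of genes, 7 of 9. For comparison, 21.1% of all consecutive 100 kb windows held a peak of the first list and 19.7% held a peak of the R2 list. At 1 kb, the corresponding shares of windows were 0.741% and 0.453%. These windows tile the genome and are not gene starts, where ETS factors are commonly found, so they are a low background. An hg19 annotation of all genes was not used here. Nothing is therefore claimed about these 9 genes against other genes.

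**Figure D1:**
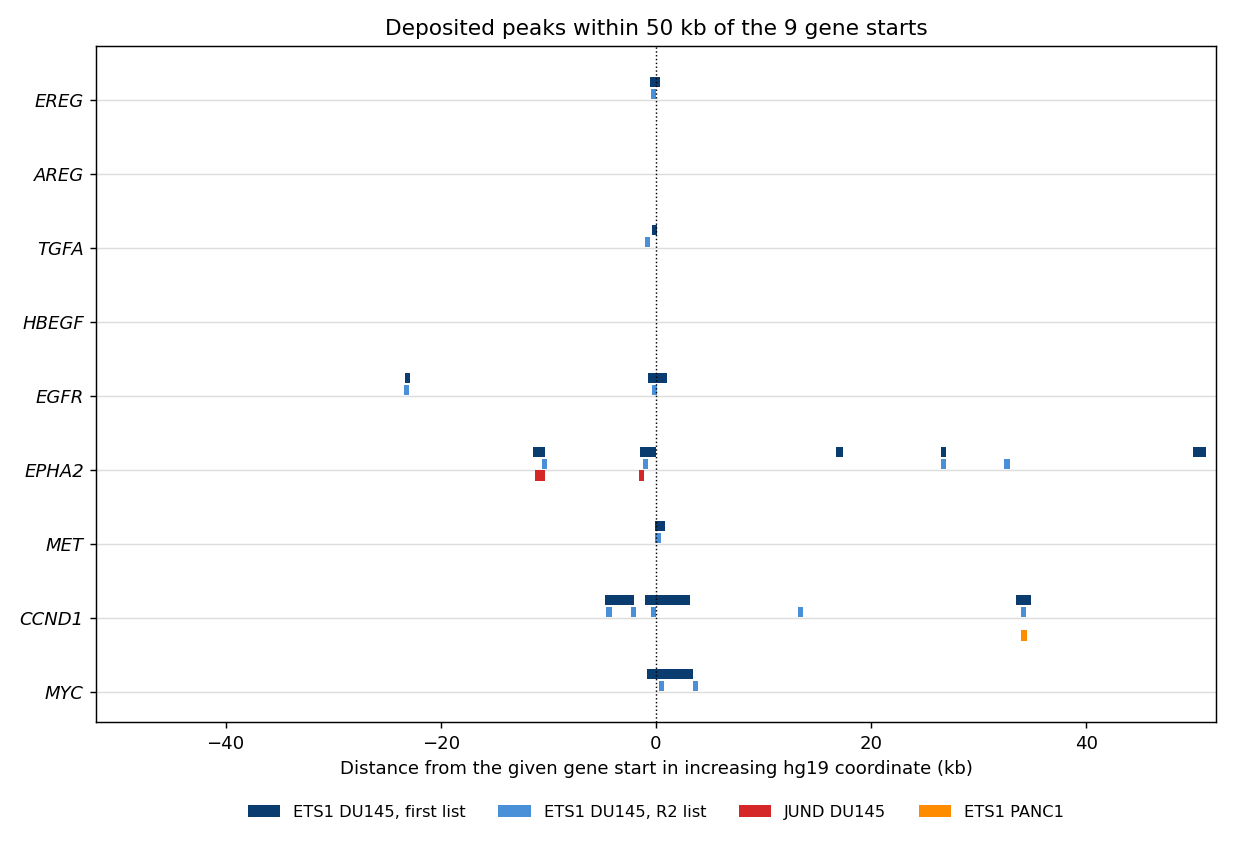
Each bar is a deposited peak drawn to scale, by distance in kb from the given start of the gene named at the left (dotted line, increasing hg19 coordinate to the right). Of the 14 first-list ETS1 peaks, 7 lie over the dotted line, 1 in each of 7 genes, and of the 16 R2-list peaks 4 do. Others lie away from it at EGFR, EPHA2 and CCND1, the 2 JUND peaks are at EPHA2, the 1 PANC1 ETS1 peak is at CCND1, and the rows of AREG and HBEGF are empty.

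Within the 4 ligand genes, EREG and TGFA had ETS1 within 50 kb and AREG and HBEGF did not. Within 100 kb all 4 did, AREG only through the peaks over the EREG start. EREG encodes epiregulin, a ligand of EGFR and ERBB4. It had 1 peak in each ETS1 list, on chromosome 4 from 75230416 to 75231406 in the first list (991 bp) and from 75230552 to 75231042 in the R2 list (491 bp). Both covered the start, and the R2 peak lay wholly inside the first. They stood at line 4659 of 9984 and line 3822 of 9306, so neither was among the earliest lines of its list.

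AREG encodes amphiregulin, another EGFR ligand, and is the next protein-coding gene above EREG in RefSeq order, where EPGN, EREG, AREG and BTC, all genes of EGF family ligands, follow each other. No list had a peak within 50 kb of the AREG start. The nearest ETS1 peaks were those over the EREG start, 79.6 kb away in the first list and 80 kb in the R2 list. Each ETS1 list had 2 peaks in the 604 kb between the nearest JUND peaks on either side of the pair, which were 255 kb below EREG and 268 kb above AREG. ELF1, ELK4 and GABPA had 0 peaks in that stretch, and the PANC1 ETS1 list had none on the chromosome. The AREG and EREG windows overlap, but no peak fell in the shared part.

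TGFA encodes transforming growth factor alpha. Each ETS1 list had 1 peak there, but they did not meet. The first-list peak, on chromosome 2 from 70780593 to 70781089, covered the start. The R2 peak, from 70779988 to 70780479, ended 113 bp below the first-list peak and 0.52 kb below the start. TGFA lies on the minus strand, so the R2 peak is on the transcribed side of the start. The first-list peak was narrow, at 497 bp, and 97.2% of the list was at least as wide. It stood at 88.1% of the way down the list, and the R2 peak at 74.2%.

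HBEGF encodes heparin-binding EGF-like growth factor, whose precursor is also the diphtheria toxin receptor. It had no peak of any list within 50 kb. Just beyond that limit, 54.2 kb above the start, the first list had an ETS1 peak of 1801 bp (chromosome 5, 139780214 to 139782014). The R2 peak inside it began 54.8 kb away and a GABPA peak 55.1 kb away. An ELK4 peak with no ETS1 region lay 84.5 kb below the start. RefSeq places SLC4A9 and ANKHD1 next above HBEGF, so these peaks may be as close to other genes, and their position relative to those genes was not determined.

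All 3 receptor genes had a first-list ETS1 peak over the given start, and EGFR and MET also had an R2 peak there. At EPHA2 and MET, an edge of the first-list peak lay within the rounding of the start. At EGFR, the first-list peak on chromosome 7 from 55086259 to 55088005 was 1747 bp wide, and the R2 peak from 55086624 to 55087120 lay inside it. A second site, in both lists, lay 22.83 kb below the start by the nearest edge of its first-list peak, at 55063677 to 55064167. As EGFR is on the plus strand, this is the upstream side. That site was narrow (491 bp) and late, at 91.4% of the first list and 92.6% of the R2 list. The start peaks stood at 60% and 65.2%.

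MET encodes the receptor of hepatocyte growth factor. It had 1 peak in each list, from 116311949 to 116312806 (858 bp) in the first and from 116311957 to 116312428 (472 bp) in the R2 list, on chromosome 7. Both began just below the given start and reached over it. They were among the last lines of their lists, at 92.7% and 97.8%. Of the peaks nearest to a start, those of MET stood latest in both lists.

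EPHA2 encodes an ephrin receptor that is abundant in many carcinomas and is induced by RAS/ERK signalling. It had 5 first-list peaks and 4 R2 peaks, and it was the single member with JUND. The gene is on the minus strand, so lower coordinates are its transcribed side. Over the start lay a first-list peak on chromosome 1 from 16481477 to 16483021 (1545 bp), while the R2 peak inside it, from 16481800 to 16482296, ended 0.7 kb short of the start. A JUND peak from 16481423 to 16481896 shared 420 bp with the first and 97 bp with the R2 peak. The centres of the JUND and R2 peaks were 388 bp apart.

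The other JUND site at EPHA2 overlapped ETS1 more fully. About 11 kb into the transcribed side, a JUND peak from 16471739 to 16472688 (950 bp) shared 946 bp with the first-list ETS1 peak from 16471531 to 16472684. It shared 282 bp with the R2 peak from 16472407 to 16472902. The centres of the JUND and first-list peaks were 106 bp apart. This JUND peak stood at line 355 of 1308, earlier than the one by the start, at line 841. Its width was reached by 15.9% of JUND peaks, against 98.4% for the one by the start.

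The remaining ETS1 peaks at EPHA2 lay above the start on its upstream side, and all but the farthest stood at 91.3% of their list or later. Both lists had a narrow peak near 26.7 kb, from 16509471 to 16509947 in the first list, at 94.6% of the first list and 97.4% of the R2 list. Single peaks lay 17.06 kb above the start in the first list and 32.63 kb above it in the R2 list. At the limit, a first-list peak from 16532936 to 16534118 entered the window with its nearest edge 49.94 kb away, and the R2 peak within it, 50.2 kb away, did not. RefSeq names ARHGEF19 as the next protein-coding gene on that side.

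The growth genes had the widest ETS1 intervals. CCND1 encodes cyclin D1, the partner of CDK4 and CDK6 in the passage through G1. Over its start, the first list had a peak of 4162 bp on chromosome 11 from 69454961 to 69459122, and 0.611% of the list was at least as wide. The R2 window inside it, from 69455553 to 69456025, covered the start. A second broad first-list peak of 2765 bp lay just below, from 69451228 to 69453992, and 2.64% of the list reached that width. It held an R2 peak and met another, with nearest edges 4.13 kb and 1.87 kb below the start. The R2 list also had a peak 13.43 kb above the start that no first-list peak overlapped.

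CCND1 had the single PANC1 ETS1 peak of the 9 genes, and it was not at the start. It lay 34.21 kb above the start by its centre, from 69489961 to 69490461. In DU145 the same site had a first-list peak from 69489453 to 69490850 and an R2 peak from 69489903 to 69490399. The centres of the PANC1 and R2 peaks were 60 bp apart. In DU145 this site stood earlier than the start peak, at 19.7% against 28.7% of the first list and at 15.4% against 43% of the R2 list. LTO1 is among the next 2 protein-coding genes on that side in RefSeq order, and the files do not say which gene the site belongs to. Between PANC1 and DU145, line, antibody lot and list length differ together and cannot be told apart.

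MYC encodes a transcription factor that drives growth and proliferation. Its first-list peak, on chromosome 8 from 128747119 to 128751476, was 4358 bp wide, and 0.481% of the list was at least as wide. The R2 list had 2 windows there, both overlapping the first-list peak. The window by the start, from 128748290 to 128748786, began 0.29 kb above the start and stood at 24.8% of the list. The other, from 128751412 to 128751886, stood at 96.7%. JUND had no peak in the window, but 3 lay further up, at 95.6, 116 and 118 kb, none of them in an ETS1 region. EGFR likewise had a JUND peak outside its window, 113 kb above the start and without ETS1.

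**Figure D2:**
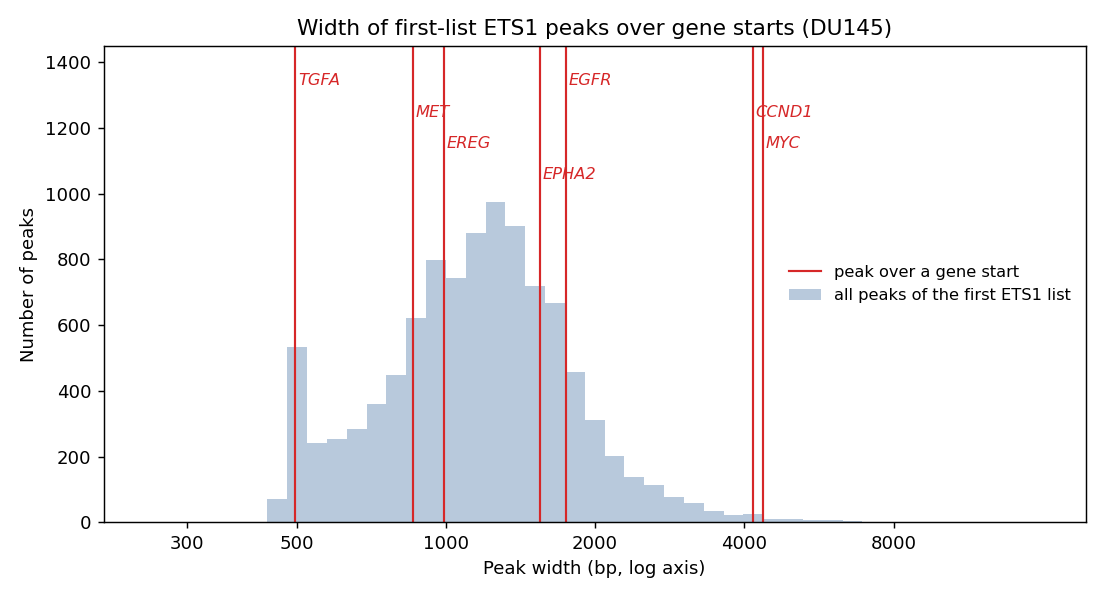
Red lines mark the width in bp (log axis) of the first-list ETS1 peak over each gene start, and the histogram gives the number of peaks of each width among all 9984 of that list. MYC (4358 bp) and CCND1 (4162 bp) lie in the right tail, TGFA (497 bp) lies in the small mode at the left, and the other 4 genes lie between 858 and 1747 bp.

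The first list is the single DU145 ETS1 list with variable widths, since the R2 list holds windows of at most 501 bp. Over all 14 first-list peaks near the genes, the median width was 1168.5 bp, against 1173 bp for the whole list. The widest 3, of 4358, 4162 and 2765 bp, were at MYC and CCND1, and the next, of 1747 bp, was at EGFR. The sources used here do not say what width reflects.

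ETS1 regions were then formed by merging overlapping peaks and keeping merged intervals to which both DU145 ETS1 lists contributed. Of 8183 such regions in the genome, 12 lay near 6 of the genes. EPHA2 had 4, CCND1 3, EGFR 2, and EREG, MET and MYC 1 each. TGFA had none because its peaks did not touch. Of the 12 regions, 6 covered a start as given to the nearest kb and 6 did not. The share of all ETS1 regions that cover a gene start was not computed. Regions were present in 18.2% of all 100 kb windows, and 2.01% held 3 or more, as 2 of the 9 genes did. In all, 12 of 14 first-list peaks near the genes overlapped an R2 peak (85.7%, against 82% of the whole list). In the other direction, 13 of 16 R2 peaks did so (81.2%, against 88.4%).

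No other ETS factor was listed at these genes. GABPA, ELK4 and ELF1 each had 0 peaks within 50 kb of any of the 9 starts. Such peaks were found in 6.8%, 1.08% and 0.825% of all 100 kb windows, and 0 of 9 is near that background. The share of ETS1 regions rests on the same absence of peaks and is not a separate result. Of the 12 regions near the genes, 0 held a GABPA, ELK4 or ELF1 peak, a count of 0 that is compatible with shares as high as 25% (3 counts of the total) or 26.5% (95% Clopper-Pearson interval). Over all ETS1 regions the share was 30.4% (29.4 to 31.4%). These limits cover counting error and treat the 12 regions as independent, although 9 of them share 3 windows.

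The line order of the ETS1 list moved with this share. Divided into 5 equal groups by line in the first list, ETS1 regions held another ETS factor in 54.3%, 42.9%, 27.9%, 16.7% and 10.3% of cases from the earliest to the latest group. None of the 12 regions near the genes was in the earliest group, 4 were in the second, 2 in the third, 1 in the fourth and 5 in the last. Weighted by these positions, a comparison chosen after seeing the data, the share over all regions was 24.6%, against 30.4% unweighted. No conclusion is drawn from either value. The 4 regions in the second group were the start regions of EPHA2, CCND1 and MYC and the site 34 kb above CCND1. The part of line order in the absence of other ETS peaks was not tested.

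**Figure D3:**
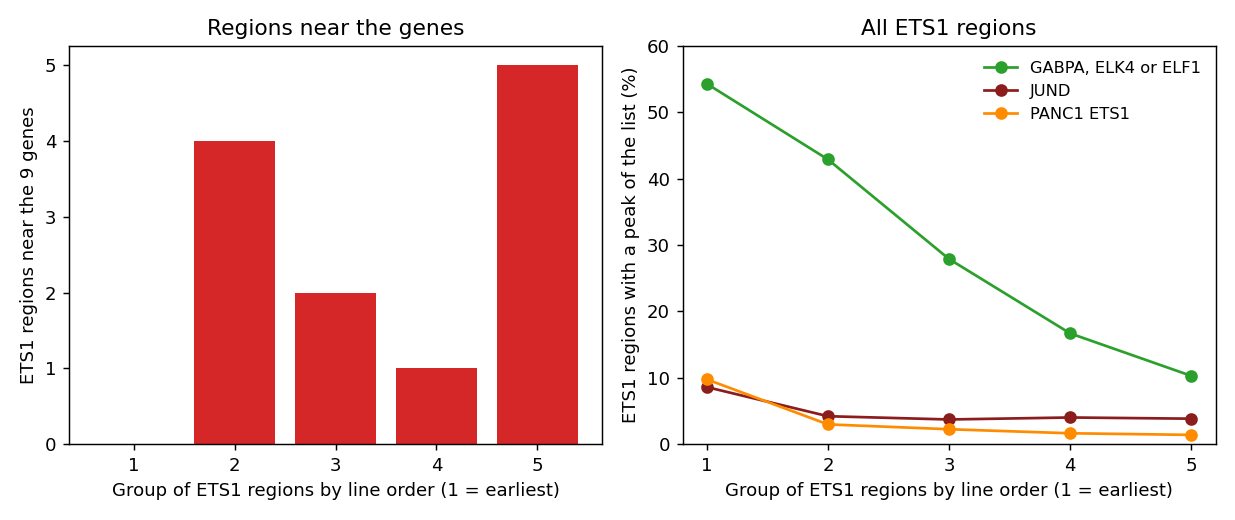
Left, the number of ETS1 regions near the 9 genes in each of 5 equal line-order groups (0, 4, 2, 1 and 5). Right, the percentage of all ETS1 regions in each group that held a peak of GABPA, ELK4 or ELF1, of JUND, or of PANC1 ETS1, with the first of these going down from 54.3% to 10.3% across the groups.

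JUND and PANC1 ETS1 each met few of the regions. JUND was at 2 of 12 (16.7%, 95% interval 2.09 to 48.4%), against 4.89% of all ETS1 regions and 3.97% when weighted by line group. Both regions belong to EPHA2, so the share rests on 1 gene. By genes, 1 of 9 had a JUND peak, while 3.48% of 100 kb windows did. When peak centres had to be within 200 bp, 1 region remained, the one 11 kb into EPHA2. The PANC1 list met 1 of 12 regions (8.33%, 0.211 to 38.5%), against 3.62% of all, and 1 of 9 genes, against 0.979% of windows. With 1 or 2 regions each, these shares are too imprecise to be read against the backgrounds. The other 9 regions held no peak of any other list. Over all ETS1 regions, 30.4% held GABPA, ELK4 or ELF1, 4.89% JUND and 3.62% PANC1 ETS1. Most regions in the genome therefore held none either, and the exact share was not computed.

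**Figure D4:**
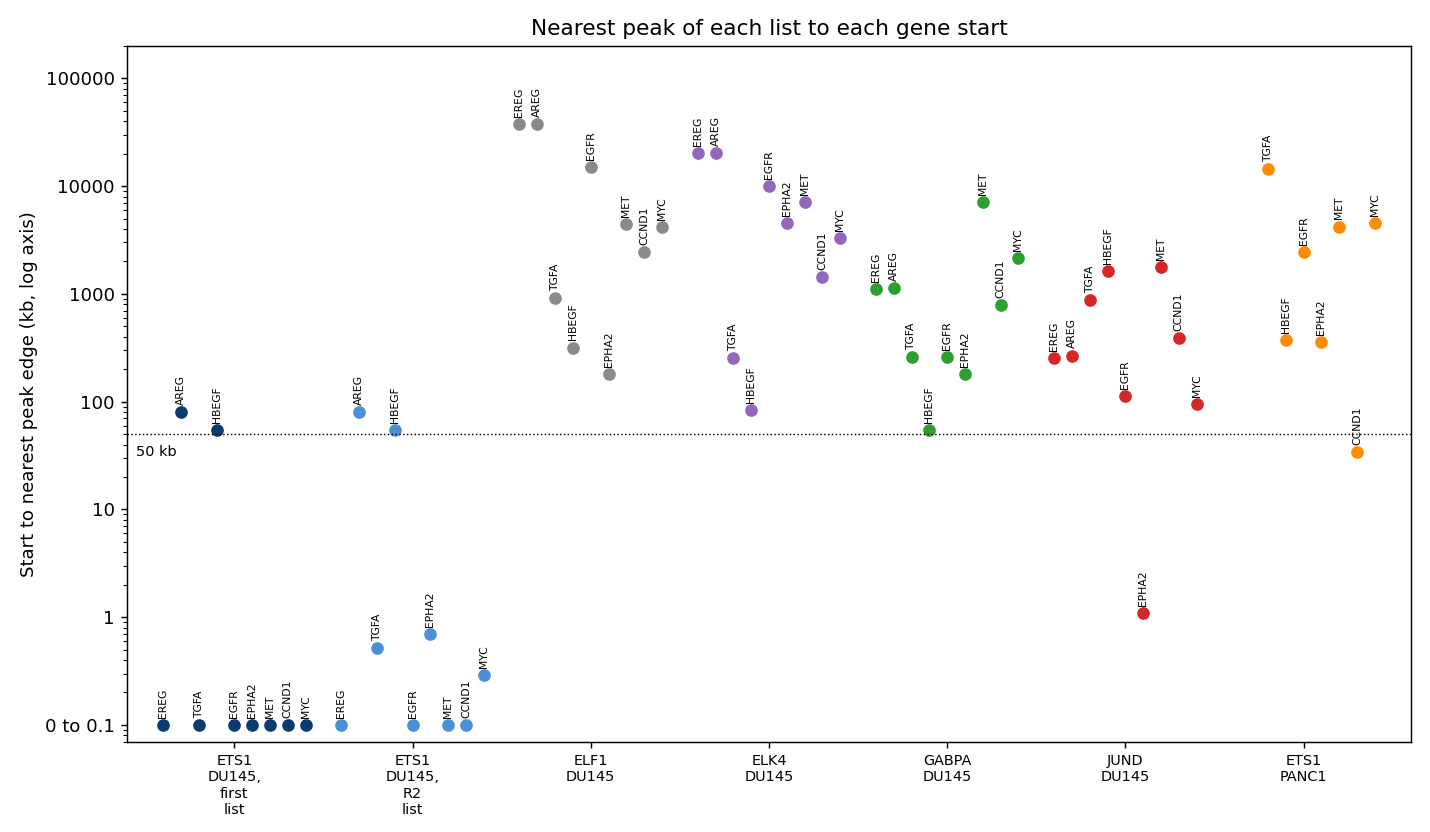
Each point is 1 gene, placed by the distance in kb (log axis) from its start to the nearest edge of a peak of the list named below, with distances of 0 drawn at 0.1. The dotted line is the 50 kb limit. ETS1 points of DU145 lie at 0.704 kb or less for 7 genes in both lists, and for the other factors 1 point, JUND at EPHA2 (1.1 kb), lies below the line, as does PANC1 ETS1 at CCND1 (34 kb).

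The nearest peak was also located where it lay beyond the window. From the 9 starts, the median distance was 0 kb for the first ETS1 list and 0.289 kb for the R2 list. It was 268 kb for JUND, 784 kb for GABPA, 4190 kb for ELF1 and 4510 kb for ELK4. For PANC1 ETS1 it was 2440 kb over the 7 genes on chromosomes with a peak. The GABPA list is longer than the JUND list, yet its median distance was the larger. The range was 55.1 to 7080 kb for GABPA and 1.1 to 1780 kb for JUND, so the ranges overlap widely. Among the genes, GABPA was nearer than JUND at HBEGF and TGFA, and JUND was nearer at the other 7. Those 7 include the neighbours EREG and AREG, with JUND at 255 and 268 kb and GABPA at 1110 and 1130 kb. The same count over all gene starts was not made, so no preference for JUND is read from it.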

How the data were processed

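ChIP-seq peak lists of 6 samples were used, 5 factors in DU145 and ETS1 in PANC1. The authors deposited each list as 3 columns, chromosome, start and end, with no score, fold or count. Coordinates are on hg19, per the labels. Bowtie2 2.0.6 is named, with no role, in the submitters' processing notes. No source used here names the peak caller, its threshold or the use of inputs. Starts were read as counted from 0 and are printed counted from 1. Gene starts were taken as given, to 1 kb, and no hg19 annotation was at hand, so other pathway genes were not placed. The 9 genes, lists and comparisons were chosen with earlier results of these data known, and all 9 genes are named. Peaks sharing at least 1 bp were counted as overlapping. Background shares are over consecutive 100 kb or 1 kb windows up to the last peak of each chromosome. Intervals are 95% Clopper-Pearson and cover counting error only. Promoters come from RefSeq (GRCh38.p14), as does gene order. An alternative was read as unchanged when a count stayed within 1.5 times or a share inside its interval. Overlap steps were tested on simulated data. Python 3.11.15, NumPy 2.4.6, SciPy 1.17.1 and Matplotlib 3.10.9 were used. There were 14 alternatives.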

Additional observations from a re-analysis of the deposited data

How the results depend on the processing

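With a window of 100 kb, 1 of 14 ETS1 regions had a GABPA, ELK4 or ELF1 peak (7.14%), at HBEGF. The other 13 of 14 alternatives gave 0, but they could not do otherwise. The nearest such peak to any start was 55.1 kb away, outside every window of 50 kb or less. Among all results, 116 values stayed within 1.5 times the count or inside the interval, and 30 did not. Some of the 116 could not have changed, so the tally overstates stability. Counts of 0 stay 0 in smaller windows or with fewer peaks. The PANC1 list was kept whole in the earlier-lines setting, which fixed its counts of genes and peaks. Of the 7 genes, 4 kept a peak in each ETS1 list among the wider peaks and 4 among the earlier lines. Peaks near the genes in the first and R2 lists were then 7 and 7 (wider) or 6 and 5 (earlier), and 8 and 10 within 10 kb. For the R2 list the wider peaks were those of 497 to 501 bp, a narrow range, so that setting says little about it. ETS1 regions numbered 7 within 10 kb, 7 with 500 bp around each centre, 6 among wider peaks and 5 among earlier lines. Within 100 kb, 9 of 9 genes had a peak in each DU145 ETS1 list. HBEGF gained peaks of its own, but those counted for AREG were the peaks over the EREG start. In that window, 1 gene had an ELK4 peak (1 peak), 1 gene a GABPA peak (1 peak) and 2 genes a JUND peak. JUND had 1 peak within 10 kb, 1 among wider peaks and 1 among earlier lines, and its share of regions was 0 in both of the last settings. PANC1 ETS1 had 0 genes, 0 peaks and a share of 0 within 10 or 25 kb. The cause was not tested beyond the smaller windows and fewer peaks that these settings impose. Without scores or reads, depth limits every absence to these lists.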
